A study of Mus musculus with 2 samples.

Results

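Border macrophages are the resident macrophages of the brain's edges, found along blood vessels and in the meninges and the choroid plexus. Here they were selected on raw transcript counts in single-cell profiles of mouse hippocampus, by the detection of the genes named next. A cell barcode was a member if it held at least 1 unique molecular identifier (UMI, one count per captured transcript) of 3 or more of Mrc1, Pf4, F13a1, Lyve1, Cd163, Ms4a7, Cbr2 and Stab1. It could hold no more than 1 of 7 genes of microglia, endothelium, oligodendrocytes and astrocytes (Tmem119, P2ry12, Siglech, Cldn5, Flt1, Mog, Aqp4), and no more than 2 of 4 MHC class II genes (H2-Aa, H2-Ab1, H2-Eb1, Cd74). The rule found 160 members among 28586 barcodes, of which 105 of 21583 came from the control library and 55 of 7003 from the treated library.

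Both libraries came from the hippocampus of male C57BL/6 mice aged 6 months, dissociated with papain and prepared as 10x libraries. The control was labelled as given saline, and the treated library, EMF_AuNPs, as given an electromagnetic field with AuNPs (gold nanoparticles); the protocol describes nanoparticles injected into the hippocampus and 3 weeks between a pair of Helmholtz coils. The labels do not give the number of animals behind a library, and whether the saline animals were placed in the field is not clear from them. With 1 library per group there is no replicate check: cells of a library are not replicates, no test was made, and intervals below are 95% intervals that cover counting error only. Library, animal and treatment cannot be told apart.

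Border macrophages differ from microglia, the macrophages of the brain tissue itself, in position and in gene programme. They sit where fluid passes between blood, cerebrospinal fluid and brain, take up proteins and debris through scavenger receptors and lectins such as the mannose receptor Mrc1, and can present antigen. The hyaluronan receptor Lyve1 marks a known subset along vessels and in the meninges, and MHC class II marks another, which the rule mostly leaves out. Spi1 (PU.1), a factor that all macrophages need, binds sites with the core GAGGAA.

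To place the genes in the genome, the 250 bases before the start in the RefSeq table of promoters are shown for Mrc1 and Pf4, the genes of the rule with the highest levels in control members, for C1qb and C1qc, complement genes that were both higher in the treated members, and for Atf3, the named gene with the lowest ratio. Capitals mark GAGGAA or, on the other strand, TTCCTC. The sequences are from RefSeq on GRCm38, read 5′ to 3′ on the gene's own strand. GENCODE M21, used for gene positions, has other starts: the stretch of Atf3 lies inside its longer gene, and those of Mrc1 and C1qc overlap the first bases of theirs.
Mrc1, chr2:14229164-14229413, plus strand: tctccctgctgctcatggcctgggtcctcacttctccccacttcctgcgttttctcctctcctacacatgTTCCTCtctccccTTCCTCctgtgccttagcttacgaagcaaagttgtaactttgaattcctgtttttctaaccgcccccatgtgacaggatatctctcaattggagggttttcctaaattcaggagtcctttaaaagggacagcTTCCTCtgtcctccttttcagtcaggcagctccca
Pf4, chr5:90772185-90772434, plus strand: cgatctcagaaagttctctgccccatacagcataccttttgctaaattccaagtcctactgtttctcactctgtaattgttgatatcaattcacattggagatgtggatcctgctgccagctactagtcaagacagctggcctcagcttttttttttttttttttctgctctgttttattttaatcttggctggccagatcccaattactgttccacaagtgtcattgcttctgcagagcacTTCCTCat
C1qb, chr4:136886201-136886450, minus strand: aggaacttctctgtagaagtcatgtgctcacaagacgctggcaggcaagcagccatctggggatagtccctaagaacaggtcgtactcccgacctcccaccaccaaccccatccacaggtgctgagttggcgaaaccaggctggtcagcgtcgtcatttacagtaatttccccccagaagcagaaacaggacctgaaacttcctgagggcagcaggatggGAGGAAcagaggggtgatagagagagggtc
C1qc, chr4:136892915-136893164, minus strand: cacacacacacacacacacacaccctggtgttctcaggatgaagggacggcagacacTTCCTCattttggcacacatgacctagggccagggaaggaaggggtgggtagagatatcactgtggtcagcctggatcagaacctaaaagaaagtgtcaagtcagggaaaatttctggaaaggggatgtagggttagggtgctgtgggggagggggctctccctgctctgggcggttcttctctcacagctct
Atf3, chr1:191183334-191183583, minus strand: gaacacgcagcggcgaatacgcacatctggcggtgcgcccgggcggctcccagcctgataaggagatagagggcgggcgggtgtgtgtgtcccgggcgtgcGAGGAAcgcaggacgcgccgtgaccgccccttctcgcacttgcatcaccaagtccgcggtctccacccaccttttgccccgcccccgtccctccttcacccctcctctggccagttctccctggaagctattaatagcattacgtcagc

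The core stood 3 times before Mrc1, at 180, 167 and 35 bases ahead of the start, and once before each of the other genes shown, at 8 bases for Pf4, 30 for C1qb, 193 for C1qc and 149 for Atf3. Of the 8 rule genes 7 were in the table of promoters, and 5 of them had an entry with the core. Across all 32851 promoter entries of the same length 23.3% held it on either strand, so a match describes the letters and is no evidence of binding. C1qa, C1qb and C1qc, which encode the 3 chains of the C1q complement protein, lie side by side on the minus strand of chromosome 4 in GENCODE M21, at 136895917 to 136898803, 136880129 to 136886187 and 136889804 to 136893065.

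The members were small in number and shallow. Control members held 551 to 5441 UMIs with a median of 1593, and treated members 599 to 6316 with a median of 2180; their libraries had medians of 1904 and 2310. In sum the members gave 191635 UMIs in the control and 128979 in EMF_AuNPs. The same 38 barcode sequences occurred in both libraries, and no member was among them. Haemoglobin made up a median of 0.0935% of a control member's UMIs and 0.917% of a treated member's, close to the medians of 0.0820% and 0.819% over all barcodes of those libraries. By these medians, haemoglobin transcripts were about equally common in a member and in a barcode of its whole library. Summed levels of red blood cell markers differed from this and are given below. A pair of treated members stood apart, with 69.5% and 48.1% of their UMIs from haemoglobin, while the next had 2.34%.

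The label was checked against genes that the rule did not use. Members expressed Csf1r, the receptor for the macrophage survival factor, at 1461 CPM (UMIs scaled to a total of 1000000 over the members of a library) in the control and 1900 CPM in EMF_AuNPs, and C1qa at 5208 and 9792 CPM. Each of the 18 other border macrophage genes of a list that could be compared stood at least 1.5-fold above the microglia gate in both libraries, beside 11.8% of all 2498 genes. The microglia gate was 2473 control and 524 treated barcodes with 2 or more of Tmem119, P2ry12 and Siglech and no more than 2 of the 8 rule genes, which keeps those genes low there by construction. Homeostatic microglia genes went the other way, with 10 of 13 at least 1.5-fold lower in members in both libraries, beside 6.69% of all genes. Cx3cr1, the fractalkine receptor, measured 584 and 527 CPM in members against 5334 and 3009 CPM in the microglia gate. Markers of T and NK cells were at 0 UMIs in the control members and at 8 UMIs, all in 1 barcode, in the treated members. Monocyte and neutrophil genes summed to 5.22 and 15.5 CPM. The members therefore carried the name's genes, as a description, since the rule chose them on genes of the same cells.

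Among the rule genes Pf4, which encodes the chemokine platelet factor 4, was the most abundant in both libraries, at 3126 CPM (2880 to 3386) in control members and 4047 CPM (3707 to 4410) in treated members. It was detected in 95.2% and 94.5% of members. Mrc1 measured 1592 CPM (1418 to 1781) and 1062 CPM (892 to 1256) and was found in 80.0% of members in each library, so its log2 ratio of -0.58 came with an equal share of cells. Stab1, the scavenger receptor stabilin, measured 1226 and 1458 CPM. These were the 3 highest of the 8 rule genes in both libraries.

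Ms4a7, a membrane protein of the MS4A family, measured 861 and 915 CPM, and F13a1, the A chain of coagulation factor XIII, measured 668 and 675 CPM. Cbr2, a carbonyl reductase, measured 376 CPM (294 to 473) and 488 CPM (375 to 625). Their intervals overlap between the libraries. Lyve1 measured 214 CPM (154 to 290) in control members and 341 CPM (248 to 458) in treated members, and Cd163, the receptor for haemoglobin bound to haptoglobin, 193 CPM (136 to 266) and 271 CPM (189 to 377). Lyve1 was the 1 rule gene at least 1.5-fold higher in EMF_AuNPs, with a log2 ratio of 0.67, and none was 1.5-fold lower. Because these genes chose the members, the values describe the choice and carry no comparison.

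**Figure D1:**
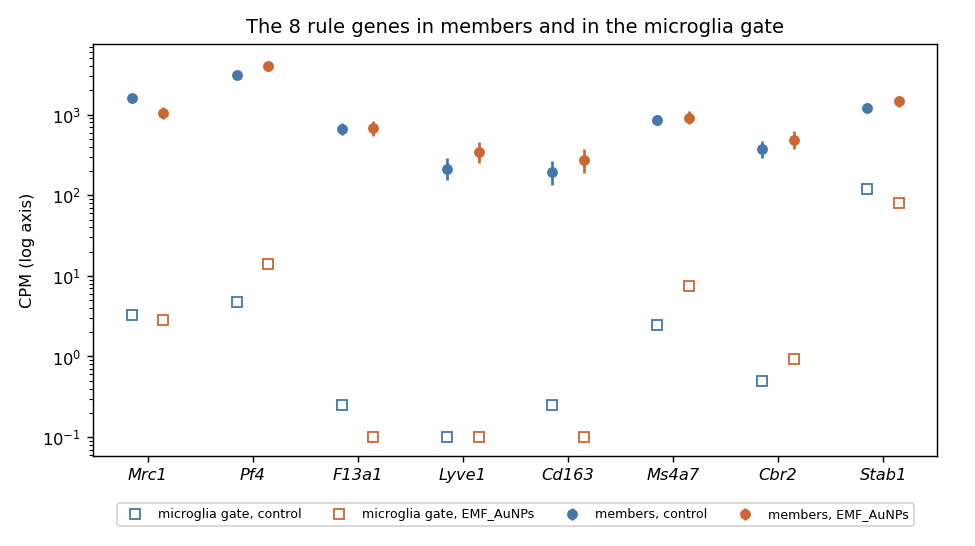
Levels of the 8 rule genes in CPM (log axis); filled circles are members with 95% exact Poisson intervals, open squares the microglia gate, blue control and orange EMF_AuNPs. Squares at the foot of the axis stand for a level of 0. Pf4 is highest in members of both libraries, and Stab1 is the rule gene with most signal in the microglia gate.

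The shares of members with the rarer genes lay closer together at equal depth. Lyve1 was found in 21% of control and 36.4% of treated members, and Cd163 in 24.8% and 38.2%. When each member with at least 1000 UMIs was thinned to 1000, leaving 80 control and 51 treated members (25 and 4 were shallower), these shares were 15.0% and 19.6% for Lyve1 and 15.0% and 15.7% for Cd163. In oligodendrocyte barcodes thinned in the same way, which should lack both genes, the shares were 0.0185% and 0.104% for Lyve1 and 0.0556% and 0.418% for Cd163 (median depths before thinning 2317 and 3256 UMIs). Both genes are part of the rule, so the distance between these shares follows from the choice of members. Lyve1 and Cd163 occurred together in 8 of 105 control and 9 of 55 treated members.

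Members with Lyve1 are described beside the other members of each library, with no test. Lyve1 is a rule gene, members without it had to hold 3 of the other 7, and cells of a library are not replicates. Members were sorted by Lyve1 in their counts before thinning, and only the shares of the genes below are at equal depth. Median depths before thinning were 2119 UMIs with Lyve1 and 1852.5 without it in the control, and 2885 and 2033.5 in EMF_AuNPs. The part of depth in the sorting was not tested. The genes shown were named after their values were seen. The chemokine gene Ccl7 was found in 38.9% of 18 control members with Lyve1 and 8.06% of 62 without it, and in EMF_AuNPs in 36.8% of 19 and 18.8% of 32. For Cd209f, a C-type lectin, the share with Lyve1 minus the share without it was 33.9 percentage points in the control and 15.0 in EMF_AuNPs. For Folr2, the folate receptor of tissue macrophages, it was 14.9 and 20.2 points.

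At the edge of the rule, 25 control and 6 treated members had exactly 3 of the 8 genes, and 34 and 8 barcodes that met the rest of the rule had 2. The summed level of the 8 genes was 4573 CPM just inside and 2682 CPM just outside in the control, and 4988 and 979 CPM in EMF_AuNPs. C1q genes, which the rule did not use, summed to 9091 CPM inside and 6480 CPM outside in the control and to 14558 and 5519 CPM in EMF_AuNPs. Control members with all 8 genes numbered 4, and treated ones 7. The conditions on other genes removed many candidates: 184 control and 117 treated barcodes had 3 or more of the 8 genes, and 79 and 62 of them were left out.

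Members were 0.486% of control barcodes (exact binomial interval 0.398% to 0.589%) and 0.785% of treated barcodes (0.592% to 1.02%). The difference was 0.299 percentage points with a Newcombe interval of 0.0907 to 0.549. For each 100 barcodes of the microglia gate there were 4.25 members in the control and 10.5 in EMF_AuNPs. The share depended on how the other cell types were kept out. In 1 setting, barcodes under 1000 UMIs were left out and the others thinned to 1000 before the rule was applied. Members were then 82 of 17932 control and 64 of 5621 treated barcodes, a difference of 0.681 points (0.412 to 1.01). Thinning also acts on the genes that keep other types out, and its part was not tested. When members could hold none of the 7 genes of other types, the difference was 0.0879 points (-0.0481 to 0.265). A share of barcodes depends on the dissection and on how many cells of other types were recovered, and those parts in the result were not tested.

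**Figure D2:**
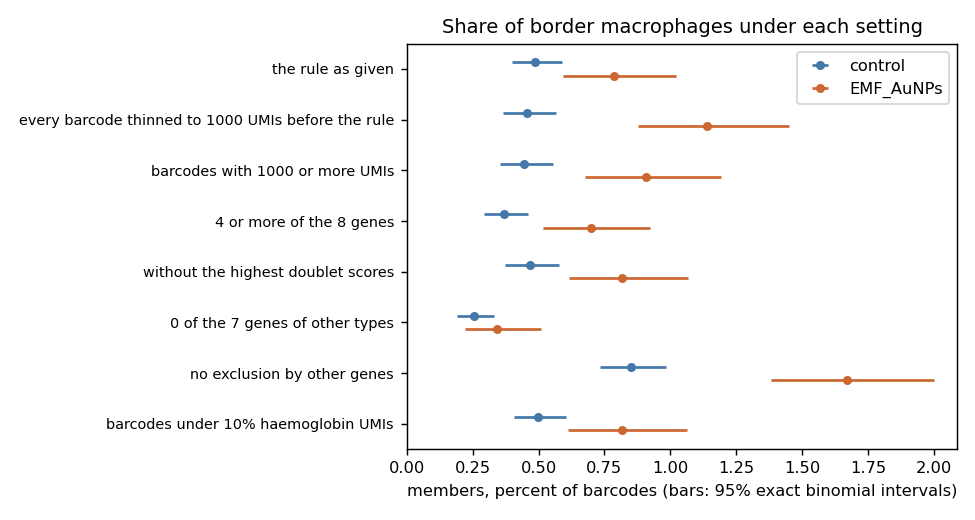
Members as a percent of all barcodes in each library under the rule and 7 other settings; points are shares and bars 95% exact binomial intervals. The treated share is the higher in each setting, and the intervals overlap when members may hold none of the 7 genes of other types.

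To describe how members of the libraries differed, UMIs were summed over the members of each library, and log2 ratios of CPM (EMF_AuNPs over control, with 1 CPM added) were formed for the 2509 genes with 20 or more UMIs. At 1.5-fold, 361 genes (14.4%) were higher and 617 (24.6%) lower in treated members, and the median ratio was -0.11. Centring on that median gave 468 higher and 507 lower genes, so the surplus of lower genes rests on the scale. The counts of gene groups below are to be read beside these background shares.

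The other border macrophage genes were mostly higher in treated members: 12 of 18 were at least 1.5-fold higher and 3 lower, with a median of 0.83, beside 14.4% and 24.6% of all genes. Cd209b, a lectin that binds bacterial and viral glycans (SIGNR1), had the highest ratio of the named genes, 8 UMIs in 6 control members (41.7 CPM) and 44 UMIs in 12 treated members (341 CPM), a log2 ratio of 3.00 (1.93 to 4.33). Clec10a, a galactose-type lectin, measured 235 CPM (171 to 314) in control members and 519 CPM (403 to 660) in treated members. At equal depth Clec10a was found in 17.5% and 41.2% of members, against 0.0556% and 0.313% of oligodendrocyte barcodes. Both lectins were thus seen in a larger share of treated members, though the share for Cd209b is given here at unequal depth.

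Further genes of this list went both ways. Clec4n, the lectin Dectin-2, measured 219 and 403 CPM, and Cd209f 376 and 651 CPM. Maf, a transcription factor of tissue macrophages, measured 444 CPM in control and 845 CPM in treated members, a log2 ratio of 0.93 (0.51 to 1.36). Dab2, an adaptor of endocytosis, measured 955 and 768 CPM and stayed within 1.5-fold. Wwp1, a ubiquitin ligase, was lower, with 428 CPM (340 to 531) in control members and 178 CPM (113 to 268) in treated members, and Ccl24, an eosinophil-attracting chemokine, with 475 (382 to 583) and 295 CPM (209 to 404). When the ratio outside the members was subtracted gene by gene, the median of the list was 0.041; the barcodes outside include the 79 and 62 that hold 3 or more rule genes. Cd209b kept a ratio of 2.12, while Clec10a was at 0.40, Clec4n at 0.26 and Wwp1 at -0.54.

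Complement genes were higher in treated members in 7 of 9 cases and lower in none, beside 14.4% and 24.6% of all genes. Their median was 0.80. C1qa measured 5208 CPM (4890 to 5541) in control members and 9792 CPM (9260 to 10348) in treated members, a log2 ratio of 0.91. C1qb measured 4602 and 8009 CPM (ratio 0.80) and C1qc 2995 and 5078 CPM (0.76), so the 3 chains differed by similar factors. C4b, the complement component that joins the C3 convertase, measured 146 and 271 CPM. Summed per barcode, the 3 C1q genes ran from 0 through a median of 13940 to 31603 CPM in the control members and from 2078 through 22112 to 41768 CPM in the treated, so the ranges overlap widely while the middle of the treated members lies higher. C4b was at 0.026 once the ratio outside the members was subtracted.

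C1q transcripts were also seen outside macrophages in these suspensions. At equal depth a UMI of C1qa was found in 20.1% of control and 42.1% of treated oligodendrocyte barcodes, beside 95% and 100% of members. Subtracting the ratio outside the members left C1qa at 0.55 and the complement list at a median of 0.49. The part of free RNA in the rest was not tested.

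The MHC class I pathway shows peptides from inside the cell to T cells. Its genes were higher in 6 of 10 cases and lower in 1, beside 14.4% and 24.6% of all genes. Their median was 0.85. H2-K1, a class I heavy chain, measured 397 CPM (312 to 496) in control members and 992 CPM (828 to 1180) in treated members, a log2 ratio of 1.32. H2-D1, the other classical heavy chain, measured 438 and 938 CPM (1.1), and B2m, the light chain, 558 and 876 CPM (0.65). Psmb8, a subunit of the immunoproteasome, measured 104 and 295 CPM (1.49, interval 0.68 to 2.36). Pdia3, a chaperone of class I assembly, was the 1 lower gene, at 282 and 178 CPM. At equal depth H2-K1 was found in 31.2% of control and 62.7% of treated members, and in 4.49% and 8.99% of oligodendrocyte barcodes. With the ratio outside the members subtracted, the median of the list was 0.39, H2-K1 was at 0.62 and H2-D1 at 0.32. Psmb8 was at 2.28 among members with none of the 7 genes of other types.

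MHC class II genes stayed rare, as the rule requires. Cd74, the invariant chain, gave 17 UMIs in control and 22 in treated members, H2-Aa 3 and 5, H2-Ab1 0 and 1, and H2-Eb1 0 in both. None of the 4 was detected in 96 of 105 control members and in 40 of 55 treated members. At equal depth the share with Cd74 was 3.75% and 21.6%. Its log2 ratio in members was 0.94 (-0.037 to 1.95), and over the whole libraries it measured 134 and 279 CPM. The rule limits Cd74, so these shares follow in part from the choice of members. Of the class II pathway genes outside the rule 3 could be compared and 2 were higher: H2-DMa, a chain of the peptide-loading factor, on 4 and 17 UMIs, and Cd86, a costimulatory ligand, on 11 and 12, while Ifi30 measured 167 and 248 CPM (0.57, and -0.037 once the ratio outside the members was subtracted). Interferon response genes were measured in 5 cases of which 1, Ifi27l2a, was higher (292 and 488 CPM), with a median of 0.32, and Ifi27l2a was at -0.35 once the ratio outside the members was subtracted.

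**Figure D3:**
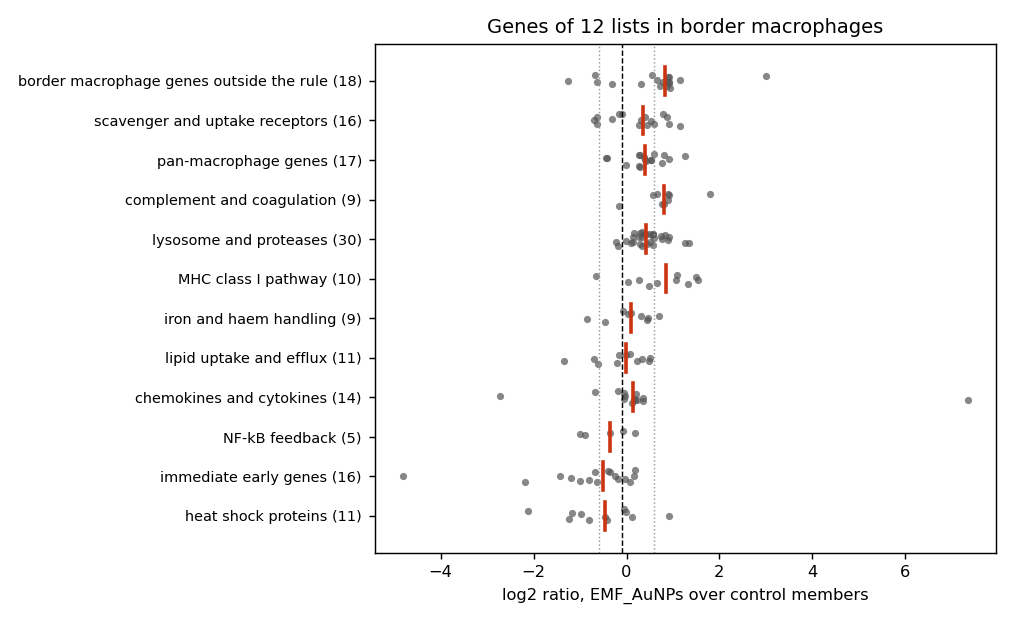
Log2 ratios of CPM between treated and control members for the genes of 12 lists, 1 grey point per gene with its list's number of genes in parentheses; red bars are list medians, the dashed line the median of all 2509 genes and dotted lines 1.5-fold. The border macrophage, complement and class I lists have medians of 0.83, 0.80 and 0.85, and immediate early and heat shock genes of -0.51 and -0.47.

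Pan-macrophage genes were higher in 5 of 17 cases and lower in none, beside 14.4% and 24.6% of all genes. Their median was 0.39. Adgre1, which encodes the surface protein F4/80, measured 162 CPM (110 to 230) in control members and 388 CPM (288 to 511) in treated members. Csf1r stayed within 1.5-fold, with a log2 ratio of 0.38. Lysosome and protease genes gave 8 higher of 30 and none lower, beside the same shares of all genes, with a median of 0.42. Lgmn, the asparagine endopeptidase legumain, led the named genes of that list with 423 CPM (336 to 525) and 1008 CPM (842 to 1197) and was found at equal depth in 35% and 66.7% of members. Subtraction of the ratio outside the members left Lgmn at 0.25 and Adgre1 at 0.54.

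Lysozyme needs care. Lyz2 measured 2223 CPM in control and 4179 CPM in treated members, and Lyz1 605 and 1527 CPM, but these are near-identical neighbours whose reads the counting may have split. Their ratios of 0.91 and 1.33 turned to -0.73 and -0.83 after subtraction of the ratio outside the members. Some barcodes outside express lysozyme: those gated on MHC class II genes had mean levels of 3996 CPM for Lyz2 and 1424 CPM for Lyz1. Also outside are the 79 control and 62 treated barcodes with 3 or more rule genes that the rule left out. The ratio outside thus holds the mix of cells as well as free RNA, and these parts were not tested.

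Nrros, which anchors latent TGF-beta on macrophages, measured 78.3 CPM (43.8 to 129) in control members and 279 CPM (195 to 386) in treated members, a log2 ratio of 1.82. Unc93b1, the chaperone that carries endosomal Toll-like receptors, measured 230 and 690 CPM (1.58), and Cd53, a leukocyte tetraspanin, 130.5 and 326 CPM (1.31). Ppp1r14b, a phosphatase inhibitor, Hcfc1r1 and the splicing factor Hnrnpf complete the 12 highest named genes, each with a ratio of 1.17. Receptors of cytokines, complement and chemokines gave 5 higher of 14 and none lower, beside 14.4% and 24.6% of all genes. Their median was 0.29. Ifngr1, a chain of the interferon-gamma receptor, measured 167 and 341 CPM and Il10rb, shared by receptors of the IL-10 family, 141 and 248 CPM. Subtracting the ratio outside the members gave 0.83 for Unc93b1, 0.37 for Cd53, 0.52 for Hnrnpf and 0.052 for Il10rb. Nrros was at 1.11 and Hcfc1r1 at 0.39 with the rule applied after thinning, and Ifngr1 at 0.42 among members with none of the 7 genes of other types.

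Scavenger and uptake receptors were mixed, with 5 higher and 3 lower of 16, beside 14.4% and 24.6% of all genes. Their median was 0.36. Fcgrt, the neonatal Fc receptor, measured 381 and 721 CPM and Fcgr3, a low-affinity IgG receptor, 485 and 737 CPM. The 3 lower genes, Lrp1, Cd93 and Colec12, were named after their values were seen and rest on few UMIs, 34 and 14 for Lrp1 and 14 and 6 for each of the other two. Iron and haem genes gave 1 higher and 1 lower of 9, beside the same shares of all genes, with a median of 0.09. Fth1 and Ftl1, the ferritin chains, measured 13818 and 13033 CPM and 7598 and 7769 CPM. Hmox1, haem oxygenase, had 13 and 12 UMIs. Ferritin was thus near equal in the members of the libraries, beside median haemoglobin shares of 0.0935% and 0.917%.

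Immediate early genes, transcription factors and feedback regulators that cells switch on within minutes of a stimulus, were lower in treated members in 8 of 16 cases and higher in none, with a median of -0.51, beside 24.6% and 14.4% of all genes. Atf3, a stress-induced repressor (chr1:191170296-191218039, minus strand), had the lowest ratio of the named genes. It gave 89 UMIs in 31 of 105 control members (464 CPM, 373 to 572) and 2 UMIs in 2 of 55 treated members (15.5 CPM, 1.88 to 56.0), a log2 ratio of -4.82 (-7.97 to -3.01). At equal depth Atf3 was found in 27.5% of control and 2.0% of treated members. The size of the difference depended on the membership: the ratio was -5.83 among members with 4 or more of the 8 genes, -3.28 among those with none of the 7 genes of other types, and -2.18 among the 82 control and 64 treated barcodes that met the rule after thinning.

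Egr1, a zinc finger factor, measured 532 CPM (434 to 646) in control members and 116 CPM (65.1 to 192) in treated members, a ratio of -2.18, and of -1.13 with the rule applied after thinning. Ier2 measured 590 and 217 CPM (-1.44), Fos 2630 and 1147 CPM (-1.20) and Junb 741 and 372 CPM (-0.99). Jun, the most abundant gene of the list, measured 4717 and 3047 CPM (-0.63). Klf2 and Klf4, Krüppel-like factors, had ratios of -0.68 and -0.81. Jund, Fosb, Rhob and Ier5 stayed within 1.5-fold, with ratios of -0.04, 0.16, 0.17 and 0.08. Klf4 was at -1.92 among members with none of the 7 genes of other types.

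The summed level of the 16 immediate early genes ran from 0 through a median of 11927 to 51035 CPM over control members, and from 0 through 6952 to 38923 CPM over treated members. The ranges overlap along most of their length, and 10 control and 2 treated members had no UMI of these genes. Those 10 control members held 551 to 1303 UMIs, and the 2 treated ones 1809 and 1959. Depth was not made equal for these sums, and its part was not tested. High values were thus found in part of the members of each library and not in all of them.

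**Figure D4:**
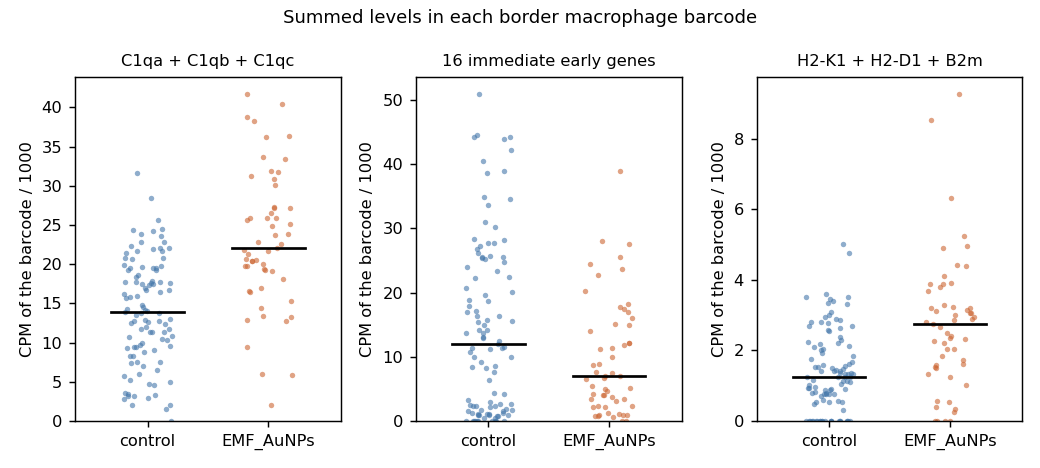
Summed levels in each member barcode, in CPM divided by 1000, for C1qa, C1qb and C1qc, for 16 immediate early genes, and for H2-K1, H2-D1 and B2m; each point is a barcode and black bars are medians, with 105 control and 55 EMF_AuNPs barcodes. The medians are 13940 and 22112 CPM for C1q, 11927 and 6952 CPM for immediate early genes and 1254 and 2756 CPM for class I.

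Feedback genes of NF-kB were lower in 2 of 5 cases and higher in none, beside 24.6% and 14.4% of all genes. Their median was -0.37. Nfkbia, the inhibitor IkB-alpha, measured 360 and 194 CPM and Ier3 824 and 411 CPM. Among members with none of the 7 genes of other types the median of the NF-kB list was -1.07. Heat shock genes were lower in 5 of 11 cases and higher in 1, beside the same shares of all genes, with a median of -0.47. Hsp90ab1, a cytosolic chaperone, measured 2254 CPM (2047 to 2477) in control members and 961 CPM (800 to 1146) in treated members, and Hsp90b1, its counterpart in the endoplasmic reticulum, 678 and 341 CPM. Hspa1a was the higher gene, at 115 and 217 CPM on 22 and 28 UMIs. Hsp90ab1 is also plentiful in oligodendrocyte barcodes, with a UMI in 96.6% of control and 89.8% of treated ones at equal depth. Among members with none of the 7 genes of other types, Nfkbia was at -2.34 and Hspa1a at 2.54. Once the ratio outside the members was subtracted, Hsp90ab1 was at -0.51 and the heat shock list at a median of -0.14.

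The remaining genes among the 12 lowest were Arglu1 (235 and 62.0 CPM) and St13 (271 and 85.3 CPM), a splicing regulator and a cochaperone, and Tln1 (402 and 109 CPM) and Fermt2 (256 and 93.0 CPM), which link integrins to actin. Pafah1b1 and Nfix had ratios of -1.62 and -1.50, Tax1bp1 and Chmp3 -1.45 and -1.42, and the joint entry Morf4l1,Morf4l1-ps1, whose parent and pseudogene cannot be told apart, -1.87. Fermt2 and Nfix had 21% and 24.6% of their level in the cell type that expressed them most (mural cells and oligodendrocytes). After subtraction of the ratio outside, Tln1 was at -0.83, St13 at -0.62, Pafah1b1 at -0.59, Tax1bp1 at -0.68 and the Morf4l1 entry at -0.36. With the rule applied after thinning, Arglu1 was at -1.0, Fermt2 at -0.84 and Chmp3 at -0.67.

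Genes of other cells also differed between the members of the libraries, in several cases in another direction than over the whole libraries. Mural cell markers summed to 1096 CPM in control and 163 CPM in treated members (1348 and 2313 CPM over the whole libraries); of 210 control UMIs 131 came from 1 member and 185 from 4, and 78 control and 38 treated members had none. Choroid plexus markers summed to 11240 and 4978 CPM in members (57704 and 44960 CPM over the whole libraries), and oligodendrocyte markers to 6147 and 4698 CPM (12934 and 10875 CPM over the whole libraries). Astrocyte markers summed to 5938 and 4970 CPM in members and to 8386 and 12407 CPM over the libraries, and endothelial markers to 177 and 178 CPM and to 2196 and 3123 CPM. Red blood cell markers summed to 955 and 48411 CPM in members and to 13425 and 42220 CPM over the libraries. Their part in the results was not tested. Among the 96 control and 53 treated members with no more than 2 genes of the mural and of the choroid plexus lists, and among members without the 2 rich in haemoglobin, the immediate early list had medians of -0.53 and -0.39, the class I list 0.71 and 0.90, and the border macrophage list 0.78 and 0.90.

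Chemokine genes, which define part of the border macrophage programme, were mostly level. Of 14 compared, 1 was higher and 2 lower, beside 14.4% and 24.6% of all genes, with a median of 0.14. Ccl7 measured 480 and 465 CPM, Ccl8 219 and 279 CPM, Ccl12 433 and 504 CPM, Ccl2 256 and 279 CPM and Ccl3 835 and 822 CPM. The ratio of Ccl8, 0.35, turned to -0.81 once the ratio outside the members was subtracted and was 0.99 with the rule applied after thinning. The higher gene was Ccl5, whose 21 UMIs all came from 1 treated member that also held the 8 UMIs of T and NK cell markers. Cxcl2, a neutrophil-attracting chemokine named after its value was seen, gave 50 UMIs in control and 5 in treated members (261 and 38.8 CPM), from 10.5% and 3.64% of members. Lipid uptake and efflux genes gave none higher and 3 lower of 11, beside the same shares of all genes, with a median of -0.01. Apoe, the lipid carrier, was the most abundant, at 57610 and 50218 CPM.

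Homeostatic microglia genes, low in members as given above, were higher in treated members in 6 of 13 cases and lower in none. All genes gave 14.4% and 24.6%. The median of the list was 0.47. P2ry13, a purine receptor, measured 78.3 and 155 CPM, Gpr34, a lipid receptor, 104 and 194 CPM, and Fcrls, an Fc receptor-like gene, 798 and 1241 CPM. In the microglia gate the median of these 13 genes was 0.059. Among members it was 0.079 for genes with 50 or more UMIs and 0.11 with the rule applied after thinning. The part of microglia transcripts in the other results was not tested.

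The remaining lists had medians within 1.5-fold, and their counts stand beside 14.4% higher and 24.6% lower of all genes. Disease-associated microglia genes were higher in 5 of 13 cases and lower in 1 (median 0.30), alternative activation genes higher in 3 and lower in 2 of 7 (0.05), and growth factor and matrix genes higher in 2 and lower in 1 of 8 (0.11). Tgfbi, a matrix protein induced by TGF-beta, measured 188 and 349 CPM and Igf1, insulin-like growth factor 1, 146 and 248 CPM, the latter at -0.13 after the ratio outside was subtracted. Nrf2 targets gave 1 higher and 1 lower of 7 (-0.08) and glucocorticoid-induced genes 1 and 1 of 6 (-0.27), a median that turned to 0.25 with the rule applied after thinning and was -0.65 at 1 or more UMIs. None of 15 circadian clock genes reached 20 UMIs. Arg1, Chil3, Retnla, C3, Il6, Cxcl10, Gpnmb, Mki67 and Top2a gave no UMI in members of either library. The exact Poisson interval of a count of 0 reaches 19.2 CPM in control and 28.6 CPM in treated members.

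The same contrast was set beside that of the microglia gate. The libraries are the same, but transcripts of other cells did not differ alike in members and in the gate. Oligodendrocyte markers had median ratios of -0.47 in members and 0.79 in the gate, and astrocyte markers -0.51 and 0.04. Choroid plexus markers were nearer, at -0.91 and -0.52. Median depth was 1593 and 2180 UMIs in members and 1549 and 1889 in the gate. The parts of free RNA, dissociation and depth in these ratios were not tested. The genes highest in members over the gate were Cd209f, Ccl8, Cd209g, Clec4n, Clec10a, Dab2, Folr2, Cd209a, Wfdc17 and Igf1. Ccl8 had 42 and 36 UMIs in members and 0 in the 2473 and 524 barcodes of the gate. Nav3, Gmpr, Spint1, Fam46c, Parvg and Il1a had none in members of either library; Nav3, a neuron navigator gene, measured 184 and 72.5 CPM in the gate. Csmd3, Rapgef5, Slc2a5 and Sgk1 complete the 10 lowest, Sgk1 with 31.3 and 23.3 CPM in members against 640 and 555 CPM in the gate.

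Atf3 measured 539 CPM in control and 329 CPM in treated microglia, a log2 ratio of -0.71, and the difference of the ratios, members minus microglia, was -4.11 with a normal counting interval of -6.14 to -2.08. Ier2 was at 0.41 in microglia (difference -1.85, -2.46 to -1.23), Junb at 0.49 (-1.48, -1.96 to -1.0) and Egr1 at -0.79 (-1.39, -2.19 to -0.60). Fos differed by -0.38 (-0.66 to -0.11) and Jun by -0.03 (-0.20 to 0.15). Of the 16 immediate early genes 8 had a ratio at least 1.5-fold lower in members than in microglia and none one that was higher, beside 22% and 12.2% of all 2498 genes. Jun thus had about the same ratio in both kinds of macrophage, whereas the ratios of Atf3, Ier2, Junb and Egr1 were lower in members by more than counting error.

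Psmb8 was at 0.21 in microglia, and its ratio in members exceeded this by 1.28 (0.47 to 2.09). Maf, at -0.12 in microglia, differed by 1.05 (0.60 to 1.5). H2-K1 and H2-D1 were at 1.27 and 1.40 in microglia, with differences of 0.05 (-0.37 to 0.48) and -0.30 (-0.73 to 0.12), and Lgmn at 1.12 with a difference of 0.13 (-0.28 to 0.54). The class I heavy chains and legumain thus had about the same ratio in the microglia gate. C1qa, at 0.50 there, differed by 0.41 (0.28 to 0.53).

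**Figure D5:**
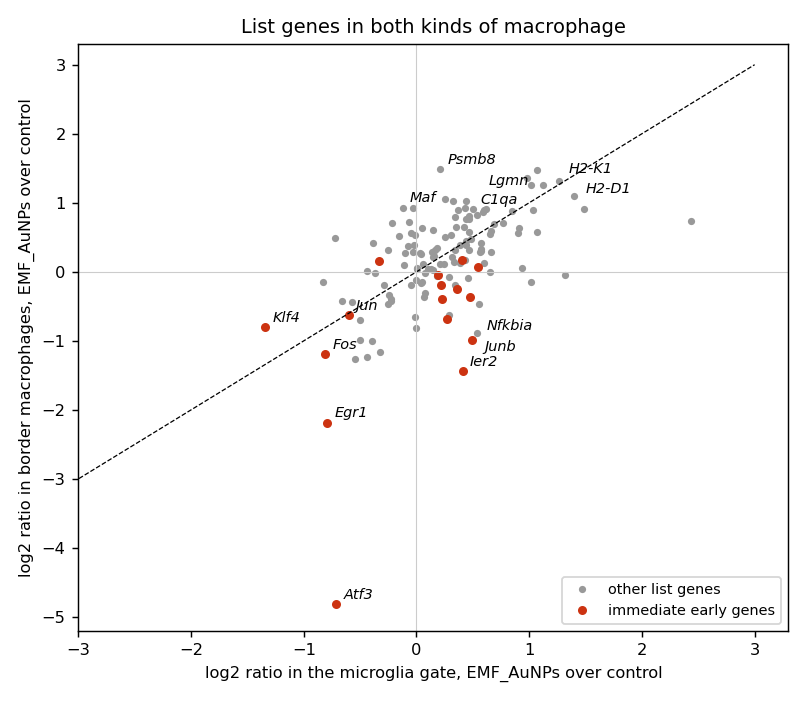
Log2 ratios of CPM, EMF_AuNPs over control, in the microglia gate (horizontal) and in members (vertical) for 138 list genes with at least 40 UMIs in each; red points are immediate early genes and the dashed line marks equal ratios. Atf3, Egr1, Ier2 and Junb lie below the line, while H2-K1 and Lgmn lie close to it.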

How the data were processed

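Single cells of 1 control and 1 EMF_AuNPs library were profiled with 10x chemistry. The authors deposited raw UMI counts per gene and barcode, for which the submitters' processing notes name the build mm10, Cell Ranger 3.0.2 and STAR; the deposited count matrices hold 24130 genes, none mitochondrially encoded, and no barcode under 500 UMIs, and library totals were 51091452 and 19544686. How those filters were set, and how many animals there were, is not given in the sources used here.

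Members were taken by the detection rule, and their UMIs summed per library, scaled to CPM (a total of 1000000) and compared as log2 ratios with 1 CPM added, in Python 3.11.15 with numpy 2.4.6, pandas 2.3.3 and scipy 1.17.1. Genes needed 20 UMIs over both libraries' members, and calls were made at 1.5-fold. Counts carry exact Poisson and shares exact binomial 95% intervals. PCR duplicates were collapsed by UMI, but the intervals still cover counting error only. Doublets were scored with Scrublet in scanpy 1.11.5; its automatic threshold marked 13.2% of control and 0% of treated barcodes, so it had not worked in the latter, and no barcode was removed in the main values. The members and gene lists were chosen with earlier results of these data known.

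Named genes had 50 or more UMIs, a mean of 50 CPM or more, detection in 10 or more members of the library where they were higher, and at least 20% of the mean level of any other cell type's gate; the 12 highest and 12 lowest ratios and up to 3 genes of largest ratio from each list were named, as were the 10 genes highest and the 10 lowest against microglia. Other genes were named to show a list's further members, after their values were seen. Of 512 list genes 10 were missing from the matrices. On simulated counts with known changes the calls were checked, but the outcome is not given here and lends the calls no support. Alternatives changed the scale, the UMI minimum, the rule, depth, doublets and haemoglobin. Promoters were from RefSeq on GRCm38.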

Additional observations from a re-analysis of the deposited data

How the results depend on the processing

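No paired analysis was possible because each group has 1 library. Depth limits rare genes: 1 UMI or 2 in a library set many ratios, and members with fewer than 1000 UMIs were 25 control and 4 treated. The difference in share was 0.681 points after thinning the barcodes of 1000 or more UMIs and leaving out the others. It was 0.0879 with none of the 7 genes of other types and 0.818 with no condition on other genes (a setting added after seeing the data). Otherwise it was within 0.299 to 0.461. Genes higher and lower numbered 116 and 171 at 50 or more UMIs and 2868 and 4478 at 1 or more. Both settings change how many genes were compared. Among members with none of the 7 genes they numbered 185 and 275 of 1080 genes compared. Without the highest doublet scores (22 control members and 1 treated) they numbered 330 and 410 of 1975. The main values were 361 and 617 of 2509. Of all calls 36.9% were higher, against 48.0% when centred, 47.7% on a trimmed mean scale (466 and 510 genes) and 45.2% with haemoglobin left out of the totals. The border macrophage list's median was 0.93 when centred and on the trimmed mean scale. Minus the ratio outside the members, medians were 0.041 for border macrophage genes, -0.32 for scavenger receptors, 0.16 for lysosome genes, -0.19 for interferon genes, 0.49 for complement, 0.39 for class I and -0.14 for heat shock, and Lyz1, Lyz2, Ifi27l2a and Igf1 reversed to -0.83, -0.73, -0.35 and -0.13. The pan-macrophage median was 0.22 without the highest doublet scores, 0.27 with 0 class II genes and 0.19 with the rule after thinning. With none of the 7 genes of other types, medians were 0.033 for interferon genes, -0.31 for chemokines and -1.07 for NF-kB feedback, and complement was at 0.56 with 1 or more UMIs. The cause of these shifts was not tested. Of 1154 values of named genes under the settings 1100 were counted as unchanged. Another 50 were counted as moved, by more than 1.5-fold, and the 4 above as reversed. A reversal was counted only for ratios past 1.5-fold. Values counted as unchanged could lie outside the counting interval. C1qa, at 0.55 minus the ratio outside the members, lay below its interval of 0.79 to 1.03. Of smaller ratios, Ccl8 turned to -0.81 and Ifi30 to -0.037 minus the ratio outside the members, Slc48a1 from -0.47 to 0.21 as a mean of per-cell CPM and Abca1 from 0.23 to -0.37 with none of the 7 genes. Glucocorticoid-induced genes had a median of 0.25 with the rule after thinning, and medians of the iron and haem, lipid, alternative activation, Nrf2, and growth factor lists changed sign in some settings, within -0.42 to 0.34.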

Other observations

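The barcodes that the rule left out for class II genes show what lies next to the members. Barcodes with 3 or more of the 8 rule genes, no more than 1 gene of other types and 3 or 4 class II genes numbered 11 in the control and 9 in EMF_AuNPs. Their rule genes summed to 6418 and 7395 CPM and their C1q genes to 14803 and 24900 CPM, both near the members' own 8255 and 9257 CPM and 12806 and 22880 CPM, while class II genes summed to 23574 and 43688 CPM. Barcodes left out for 2 or more genes of other types, with no more than 2 class II genes, numbered 52 and 36 and had a median of 2988 and 2373 UMIs; Cldn5, the endothelial tight junction gene, was in 39 of the 68 control barcodes with 2 or more such genes, and P2ry12, a microglia receptor, in 27 of the 53 treated ones.

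The 2 treated members rich in haemoglobin held 3 and 7 of the 8 rule genes, with 1224 and 3279 UMIs left once haemoglobin was set aside. The origin of their haemoglobin was not tested.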
